A study of Mus musculus with 2 samples.

Results

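The genes described here encode the enzymes and regulators with which a cell makes cholesterol and fatty acids, together with the transporters that export cholesterol. They were taken from the count table by symbol from a list of 33 genes, and all 33 were among its 21983 entries. They comprise 7 enzymes from mevalonate to squalene, 10 enzymes from squalene to cholesterol, 6 genes of sterol regulatory element-binding protein (SREBP) control and sterol transport, 8 genes of fatty acid synthesis and 2 sterol efflux transporters. RNA was sequenced from primary chondrocytes, the cells of cartilage, of wild-type mice. One library came from cultures given recombinant mouse Sparcl1, a secreted matrix-associated protein, at 50 ng/ml for 3 days, and the other from cultures given phosphate-buffered saline (PBS, the control) for the same time. The age and number of the mice are not given in the labels. Cells of both groups were grown in medium with 10% fetal bovine serum, which itself carries cholesterol and fatty acids. There was 1 library per group, so no difference has a replicate check and no test between the conditions is possible.

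Cholesterol is built from acetyl-CoA by way of mevalonate, farnesyl diphosphate and squalene, and the same farnesyl diphosphate feeds protein prenylation. When membranes of the endoplasmic reticulum are low in sterol, Scap carries SREBP proteins to the Golgi, where proteases release the part that enters the nucleus and switches on the genes of both pathways; when sterol is plentiful, Insig proteins hold Scap back. Oxysterols act through liver X receptors, which raise the efflux transporters Abca1 and Abcg1. In cartilage the pathway is known from human genetics, since mutations of the sterol isomerase gene EBP cause a chondrodysplasia punctata.

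Synthesis genes were at nearly the same level in both libraries. Of the 33, 32 had 20 or more counts over both libraries, and none of these differed by 2-fold in either direction. Among all 13317 genes with that many counts, 0.954% were higher and 0.946% lower by that rule. Among the 10169 whose summed counts lay in the members' own range (308 to 16968), 0.0885% were higher and 0.177% lower. The rule of size asks for a log2 ratio, Sparcl1 over control, of at least the stated fold and a 95% Clopper-Pearson interval that excludes 0. The ratio compares CPM, counts scaled to the size of each library, and its interval covers counting error of reads only. The most extreme ratios were 1.26-fold higher (Pmvk) and 1.28-fold lower (Elovl6). No interval reached 2-fold: the widest bounds lay at log2 0.62 for Pmvk and -0.52 for Nsdhl. The median log2 ratio over the 32 genes was -0.02, beside -0.002 over all genes tested, and 17 of 32 ratios were below 1 (53.1%, against 50.4% of all genes tested).

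Before the values, the sequences in front of several of these genes are given, because they show what the pathway's promoters share. RefSeq promoter windows on GRCm38.p6, from 250 bases before to 50 after a gene's start, were matched by symbol for 25 of the 33 genes. Every one of the 14 cholesterol synthesis enzymes with a window held CCAAT on either strand in any of its windows, as did 6 of the 11 other members. CCAAT is the core of the box bound by NF-Y, a factor known to work with SREBP. Among 10389 genes with at least 20 summed counts and a window, 42.7% held it likewise, and 37.4% of all 32851 windows did. The 5 members without it were Abca1, Acaca, Elovl6, Fads2 and Scap. Of the other letters searched, on both strands, GGGCGG occurred in 21 of the 25 members (84.0%, against 68.1%) and CACGTG in 6 (24.0%, against 11.5%). TCACNCCAC, a strict form of the sterol regulatory element, occurred in Hmgcs1 alone among these 25 (4.0%, against 1.41%). The 5 stretches printed next run 5′ to 3′ over the 180 bases before the start. They belong to both members past 1.2-fold higher (Mvk and Pmvk) and to 3 of the 5 members with CCAAT and an interval below 0 (Hmgcs1, Msmo1 and Nsdhl). The 2 members without CCAAT and with an interval below 0, Elovl6 and Fads2, are not printed. Pmvk has another window, which holds no CCAAT. Capitals mark CCAAT or its reverse complement ATTGG and, in Hmgcs1, also the sterol regulatory element at bases 137 to 129 before the start. Coordinates are on GRCm38.p6.
Mvk, chr5:114444089-114444268, plus strand: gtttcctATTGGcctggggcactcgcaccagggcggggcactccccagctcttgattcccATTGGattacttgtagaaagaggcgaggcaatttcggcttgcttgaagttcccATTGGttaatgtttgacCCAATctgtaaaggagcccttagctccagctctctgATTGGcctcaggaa
Pmvk, chr3:89454361-89454540, plus strand: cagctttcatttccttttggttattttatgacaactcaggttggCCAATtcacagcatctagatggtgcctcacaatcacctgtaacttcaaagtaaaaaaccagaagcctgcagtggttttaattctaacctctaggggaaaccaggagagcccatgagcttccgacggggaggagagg
Hmgcs1, chr13:119690171-119690350, plus strand: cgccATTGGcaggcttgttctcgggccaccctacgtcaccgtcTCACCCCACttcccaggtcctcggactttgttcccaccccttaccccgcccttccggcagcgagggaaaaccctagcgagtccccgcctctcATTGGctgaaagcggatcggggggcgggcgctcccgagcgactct
Msmo1, chr8:64733579-64733758, minus strand: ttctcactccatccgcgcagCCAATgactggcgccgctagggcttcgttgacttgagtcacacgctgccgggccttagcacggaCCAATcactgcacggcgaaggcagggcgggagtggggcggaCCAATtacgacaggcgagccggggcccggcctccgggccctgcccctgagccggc
Nsdhl, chrX:72918341-72918520, plus strand: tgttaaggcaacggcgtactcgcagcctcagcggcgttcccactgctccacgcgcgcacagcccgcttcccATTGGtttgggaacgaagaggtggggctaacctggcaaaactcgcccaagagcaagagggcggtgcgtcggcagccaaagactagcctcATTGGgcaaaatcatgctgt
The printed stretches were chosen from both directions and all hold the box, as do all 14 enzymes with a window, so these allow no comparison. The 20 members with it had log2 ratios from -0.32 to 0.33 (median 0.02), and the 5 without it from -0.35 to 0.15 (median -0.06). The 8 members without a matched window are in neither group: Fdps, Fdft1, Sqle, Stard4, Scd1, Scd2, Fads1 and Abcg1. Of these, Stard4, Scd2 and Fads1 had intervals below 0. A match is a description of letters, and no binding was measured.

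**Figure D1:**
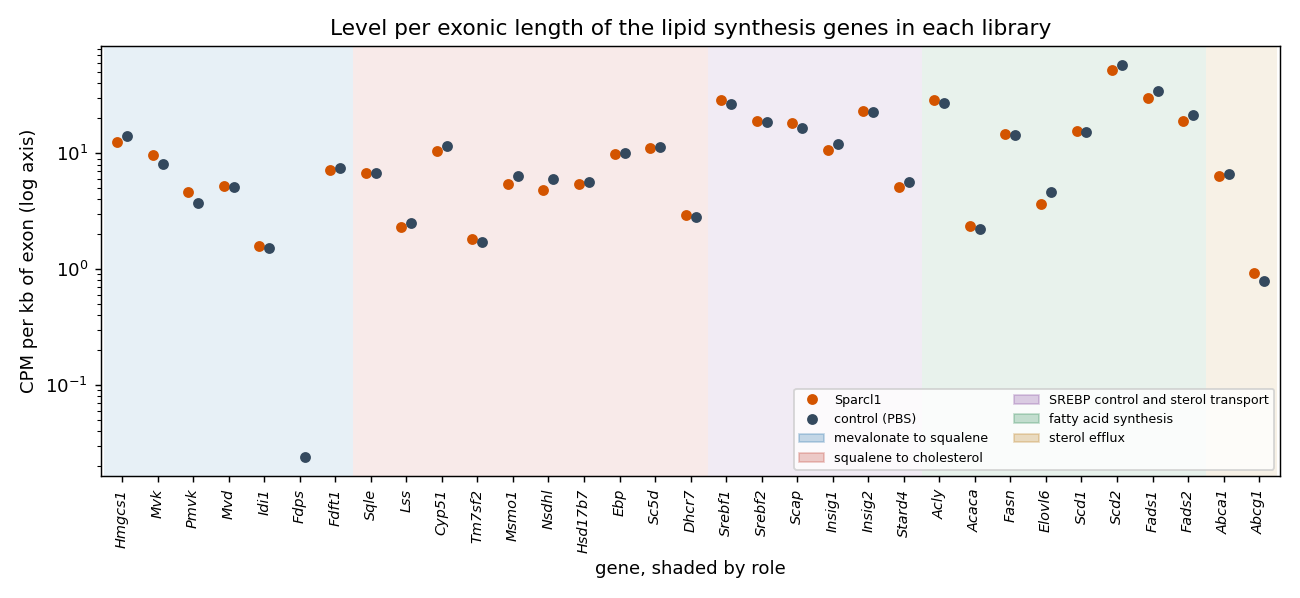
Level of each gene in the Sparcl1 library (orange, left of each pair) and the control library (dark, right of each pair), as CPM per kb of exon on a log axis, shaded by role. The points of a pair nearly coincide for every gene but Fdps, which had 0 counts in the Sparcl1 library and so has only its control point, from 3 counts.

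Levels between genes are compared per kb of annotated exon. The desaturase gene Scd2 was the most abundant member, at 52.1 CPM per kb in the Sparcl1 library and 57.2 in the control. That level was above 95.1% of tested genes in the control. Next came Fads1 (29.8 and 34.2 CPM per kb), Srebf1 (29.1 and 26.5), Acly (28.9 and 27.2) and Insig2 (23.2 and 22.9). Fads1, Srebf1 and Acly lay close together in the Sparcl1 library, while in the control Fads1 was above both others and Acly stood above Srebf1. The efflux transporter Abcg1 was lowest among the 32, at 0.927 and 0.790 CPM per kb. Fatty acid synthesis genes thus included the most abundant members, while most sterol enzymes lay between 1.72 (Tm7sf2, control) and 11.6 CPM per kb (Cyp51, control). In the control, 21 of the 32 genes lay above the median tested gene. The exonic length joins all annotated isoforms, so the level per kb is understated where long annotated isoforms are little used. Lss has 10787 bases of exon and a longest coding transcript of 4667 bases, and its isoform use was not measured.

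In the mevalonate steps the early enzyme Hmgcs1 was slightly lower, and the kinase genes Mvk and Pmvk were slightly higher. Hmgcs1, the cytosolic synthase that makes HMG-CoA, had 1545 counts in the Sparcl1 library and 1927 in the control (log2 -0.20, 95% counting interval -0.30 to -0.10). Mevalonate kinase, Mvk, had 703 and 633 counts (0.27, 0.11 to 0.43), and Pmvk, which adds the next phosphate, had 218 and 188 (0.33, 0.04 to 0.62). Mvk and Pmvk were the members past 1.2-fold higher, 2 of 32, against 8.34% of all genes tested and 7.72% in the members' count range. Mvk lies at chr5:114444269-114460591 and Pmvk at chr3:89454541-89469013 (GRCm38). With trends on exonic length and GC content removed they stood at 0.18 and 0.22, short of 1.2-fold. The decarboxylase Mvd (262 and 280 counts), the isomerase Idi1 (151 and 157) and Fdft1, which makes squalene (823 and 938), had log2 ratios of 0.02, 0.06 and -0.07, each with an interval that spans 0. Over the 6 measured enzymes, 4 ratios were above 1 (3 with length and GC trends removed, where Mvd changes sign) and the median was 0.04.

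Fdps (chr3:89093588-89101959), farnesyl diphosphate synthase, stands between Idi1 and Fdft1 in the pathway but had 0 counts in the Sparcl1 library and 3 in the control, so no ratio is given. A count of 0 allows up to 3 counts. In GENCODE M21, 86.4% of the 50-base stretches in its longest coding transcript also occur in transcripts of other genes, 8 in all, of which 7 are processed pseudogenes. Gm43738, a read-through model on the same strand, overlaps 26.7% of its exonic length and had 0 counts in both libraries. How the counting treated such reads was not given in the sources used here, so these counts cannot be read as the level of Fdps, and the part of shared sequence was not tested. The same measure, which counts matches on either strand, was 52.6% for Acaca, 30.7% for Fdft1 and 30.5% for Idi1. Their counts are uncertain too. Tm7sf2 overlaps Vps51 on the same strand over 12.1% of its exonic length. Fdft1 overlaps the lysosomal protease gene Ctsb on the opposite strand over 18.3% of its exonic length. Its shared stretches occur in Ctsb and in 1 processed pseudogene. Scap and Hmgcs1 overlap opposite-strand models over 13.2% and 12.1%, and 13.1% and 13.6% of their stretches occur in those models. At most 4.66% of the stretches were shared in Scd1, Scd2, Elovl6, Lss, Cyp51 and Insig1.

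From squalene to cholesterol, 8 of 10 ratios were below 1 (6 with library totals, where Sqle and Ebp change sign, and 6 with the trends removed, where Sqle and Sc5d do), 3 intervals lay below 0 and none above it. Of all genes tested, 50.4% had ratios below 1, and by the same rule for intervals 21.6% were lower and 20.1% higher. The 3 genes were Nsdhl, Msmo1 and Cyp51, whose products take part in removing methyl groups from the sterol nucleus. Nsdhl (chrX:72918557-72958514), a sterol dehydrogenase, had 374 counts in the Sparcl1 library and 507 in the control (log2 -0.32, -0.52 to -0.13) and passed 1.2-fold. Msmo1, the methyl sterol oxidase, had 900 and 1152 counts (-0.24, -0.37 to -0.11). Cyp51, lanosterol demethylase, had 1254 and 1516 (-0.16, -0.27 to -0.05). These intervals cover counting error of reads only, and the spread of these differences between cultures is unknown. Hsd17b7, a reductase of the same demethylation complex, had 759 and 856 counts and a log2 ratio of -0.06, with an interval that spans 0.

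The other sterol enzymes had intervals that span 0. Sqle, the squalene epoxidase, had 1024 and 1113 counts (log2 -0.003, -0.13 to 0.12), and the cyclase Lss 676 and 801 (-0.13, -0.28 to 0.02). The isomerase Ebp had 625 and 691 counts, the desaturase Sc5d 1470 and 1635, and the last reductase Dhcr7 460 and 486. Their log2 ratios were -0.03, -0.04 and 0.04. Tm7sf2, a sterol reductase, had 218 and 223 counts and the highest ratio of the group (0.08). The summed level of all 10 genes was 285.3 CPM in the Sparcl1 library and 304.4 in the control (log2 -0.09, -0.14 to -0.05), and the median log2 ratio was -0.05. Summed over all genes tested, the log2 ratio was -0.035 (-0.036 to -0.034), an interval that also excludes 0. Over genes in the members' count range it was -0.008 (-0.009 to -0.007).

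**Figure D2:**
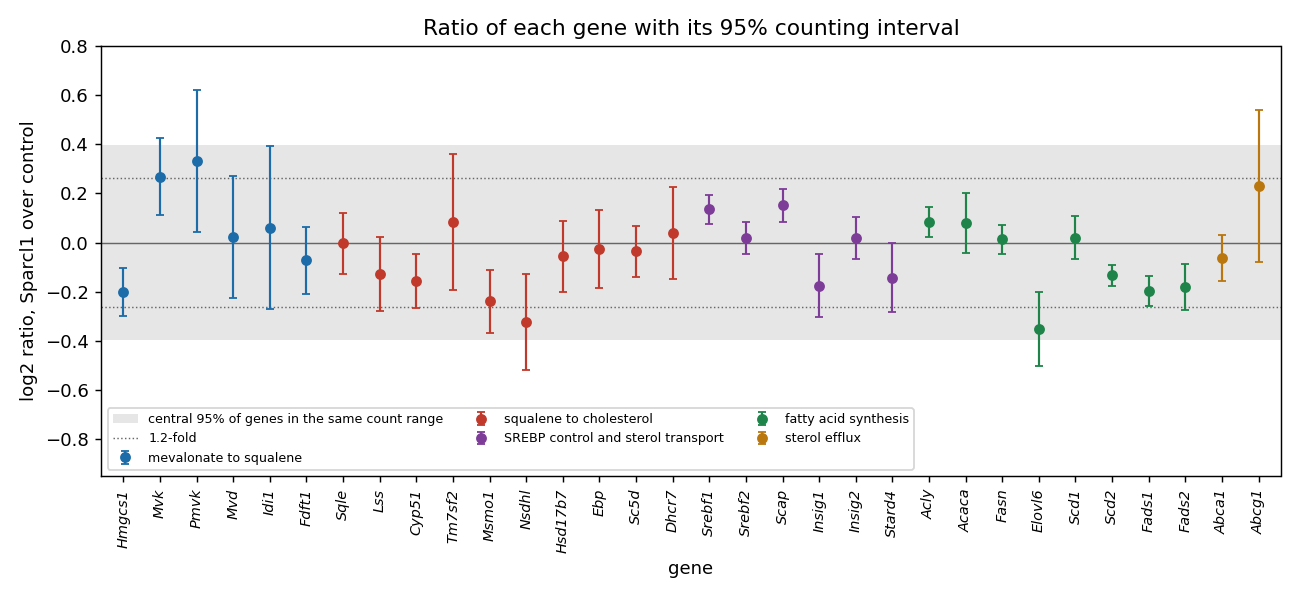
Log2 ratio of each gene, Sparcl1 over control, on the y axis with its 95% counting interval, coloured by role, for the 32 genes with 20 or more summed counts. The grey band is the central 95% of 10169 genes in the same range of summed counts (-0.39 to 0.40), dotted lines mark 1.2-fold, and all 32 points lie inside the band.

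Among the regulators, Scap and Srebf1 were slightly higher and the feedback gene Insig1 slightly lower. Srebf1, whose product drives fatty acid synthesis, had 4453 counts in the Sparcl1 library and 4399 in the control (log2 0.13, 0.07 to 0.20). Scap, the sterol sensor and escort, had 3685 and 3599 (0.15, 0.08 to 0.22). With length and GC trends removed, Srebf1 stood at 0.07 and Scap at 0.09. Srebf2, the main regulator of the cholesterol genes, had 3694 and 3960 counts (0.02, -0.05 to 0.08), with a sign that changes when the trends are removed. Insig1, a retention protein that is itself an SREBP target, had 904 and 1108 counts (-0.18, -0.30 to -0.05). Its relative Insig2 had 2189 and 2345 (0.02, -0.07 to 0.10) and was the more abundant of the pair, by 2.16 times per kb in the Sparcl1 library and 1.88 times in the control. Stard4, a soluble carrier of cholesterol, had 770 and 922 counts (-0.14), with an interval of -0.28 to -0.003 that barely excludes 0. It spans 0 with library totals (-0.11) and with the trends removed (-0.09). All 6 stayed within 1.2-fold.

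Of the 8 fatty acid synthesis genes, 4 had intervals below 0 and 1 above it, by a rule that 21.6% of all genes tested passed lower and 20.1% higher. The 4 were Elovl6, Scd2, Fads1 and Fads2, and the 1 was Acly. Acly, which supplies cytosolic acetyl-CoA, had 4145 counts in the Sparcl1 library and 4243 in the control (log2 0.08, 0.02 to 0.15). The carboxylase gene Acaca had 1091 and 1120 counts (0.08), and Fasn, fatty acid synthase, 4359 and 4684 (0.01), with intervals that span 0. Elovl6 (chr3:129532355-129638495), which elongates palmitate, was the lowest of all 32 genes, with 633 and 876 counts (-0.35, -0.50 to -0.20). Elovl6 and Nsdhl were the members past 1.2-fold lower, 2 of 32, against 7.66% of all genes tested and 6.71% in the members' count range.

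The desaturase genes came in pairs. Fads1 had 3906 counts in the Sparcl1 library and 4855 in the control (log2 -0.20, -0.26 to -0.14), and Fads2 had 1704 and 2096 (-0.18, -0.27 to -0.09). Both introduce double bonds into polyunsaturated fatty acids, and both genes lie on chromosome 19, 81141 bases apart on opposite strands. Scd2 had 7748 and 9220 counts (-0.13, -0.18 to -0.09), whereas Scd1 had 2061 and 2206 (0.02, -0.07 to 0.11). These paralogs, which make monounsaturated fatty acids, lie 87590 bases apart on the same chromosome. Scd2 was the main form in both libraries, at 3.37 times the level of Scd1 per kb after Sparcl1 and 3.74 times in the control. Over the 8 fatty acid genes the median log2 ratio was -0.06 and the summed level was 942.9 CPM in the Sparcl1 library and 993.2 in the control.

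Neither efflux transporter passed the rule of size. Abca1, which loads cholesterol onto apolipoproteins, had 1792 counts in the Sparcl1 library and 2029 in the control (log2 -0.06, -0.15 to 0.03). Abcg1, which passes cholesterol on to formed lipoprotein particles, had only 184 and 170 counts (0.23, -0.08 to 0.54). Both intervals span 0.

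Taking intervals without any minimum fold, 10 of 32 genes lay below 0 and 5 above it. That is 31.2% lower and 15.6% higher, against 21.6% and 20.1% of all genes tested. In the members' count range the shares were 23.0% lower and 21.9% higher. The 10 were Hmgcs1, Cyp51, Msmo1, Nsdhl, Insig1, Stard4, Elovl6, Scd2, Fads1 and Fads2, and the 5 were Mvk, Pmvk, Srebf1, Scap and Acly. With length and GC trends removed, the intervals of Stard4 and Pmvk span 0 and that of Acaca lies above it. Within 1.2-fold lay 87.5% of the members and 85.2% of genes in that range. The median size of a log2 ratio was 0.11 in the members and 0.11 in that range. The SD of the log2 ratios was 0.16 over the members and 0.21 over that range.

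**Figure D3:**
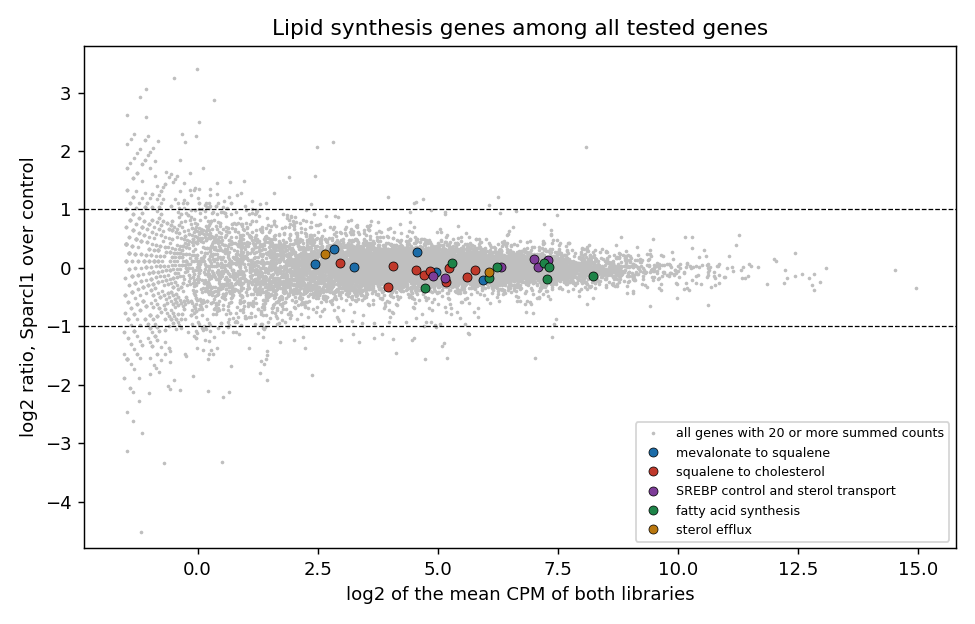
Log2 ratio, Sparcl1 over control, against the log2 of the mean CPM for all 13317 genes tested (grey) and the 32 lipid synthesis genes (coloured by role), with dashed lines at 2-fold. The coloured points lie inside the main cloud at moderate to high abundance, and none reaches a dashed line.

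Genes next to the pathway, taken from listed pathways, also had medians close to 0, and no gene of 6 such lists passed 2-fold. Only 0.954% of all genes tested were higher and 0.946% lower by that rule, so lists this short would hold few or none. For the counts past 1.2-fold in all 6 lists, the shares over all genes tested were 8.34% higher and 7.66% lower. Among 12 isoprenoid and prenylation genes the median log2 ratio was 0.003, with none past 1.2-fold. Ggps1, which makes geranylgeranyl diphosphate, was lowest at -0.24, followed by the prenyltransferase subunit gene Pggt1b at -0.22. Pdss2 and Icmt were highest at 0.25 (with an interval that spans 0) and 0.13, and the most abundant, Fnta and Zmpste24, were at -0.12 and -0.14. In SREBP processing and sterol sensing the median over 15 genes was 0.003, with 1 past 1.2-fold lower (Paqr3, -0.41, from 132 and 190 counts) and none higher. The protease that makes the first cut in SREBP, encoded by Mbtps1, was at 0.003, and the ubiquitin ligase gene Rnf139 was at -0.20. Ube2g2 and Erlin1 were at 0.23 and 0.16.

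Other genes of fatty acid synthesis, elongation and activation had a median of -0.05 over the 21 of 25 with enough counts, and 1 passed 1.2-fold lower. It was Hacd4, a dehydratase of the elongation cycle, at -0.29, and Acss2 followed at -0.17, with an interval that spans 0. Hacd2 and Elovl7 were highest at 0.18 and 0.11, with Me1 and Fads3, the most abundant, at -0.02 and -0.05. The intervals of Elovl7, Me1 and Fads3 span 0. The 4 left out for few counts included Mlxipl (4 counts in the Sparcl1 library and 8 in the control) and Thrsp (3 and 5), which are lipogenic regulators of liver and fat. For triglyceride and phospholipid synthesis the median over 15 genes was -0.002, and the 1 gene past 1.2-fold was Pcyt2 of phosphatidylethanolamine synthesis, higher at 0.26. Agpat3 was at 0.25, Gpam at -0.20 and Cept1 at -0.20, while the abundant Agpat1 and Pcyt1a were at 0.01 and -0.04.

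Sterol uptake, storage and transport genes had a median of -0.002 over 19, with 1 past 1.2-fold in each direction. Cyp7b1, an oxysterol hydroxylase, was higher, with 260 counts in the Sparcl1 library and 199 in the control (log2 0.50, 0.23 to 0.78). Gramd1c, of a family of sterol transfer proteins, was lower, from 77 and 125 counts (-0.58, -1.01 to -0.16). Cyp27a1 was at -0.27 and did not pass the rule, because its interval spans 0 (-0.58 to 0.04). The lysosomal sterol carrier gene Npc2 was at 0.18 and the very abundant receptor gene Lrp1 (71707 and 77228 counts) at 0.01. Among liver X receptors and other targets, 9 of 11 had enough counts, the median was -0.07 and 1 gene passed 1.2-fold. It was Lpl, lipoprotein lipase, lower with 6475 and 8785 counts (-0.32, -0.37 to -0.28). Smpdl3a was at -0.16, and Nr1h2 and Arl4c were at 0.07 (with an interval that spans 0) and 0.16. Apoc1 and Apoc2 had 0 counts in both libraries.

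**Figure D4:**
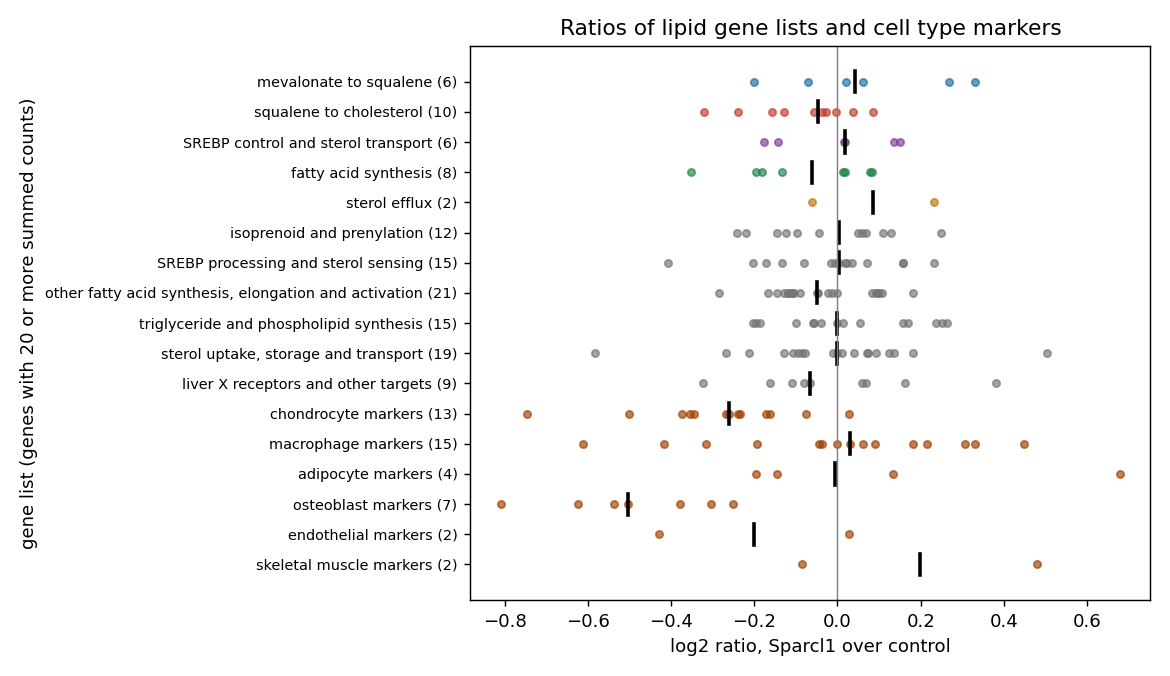
Log2 ratios, Sparcl1 over control (x axis), of the lipid synthesis genes by role (coloured), 6 neighbouring lipid lists (grey) and 6 cell type marker lists (brown), 1 point per gene with at least 20 summed counts and a bar at the median. The lipid lists centre near 0, with medians from -0.07 to 0.08, while the chondrocyte and osteoblast markers centre at -0.26 and -0.50.

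The libraries held 26871933 counts (Sparcl1) and 29858851 (control), and markers of several cell types were present in both. Chondrocyte markers were abundant, with 199410 and 254556 counts of Col2a1 and 80709 and 85813 of Comp, and their summed level was 12200 CPM in the Sparcl1 library and 13940 in the control. Of the 13, 12 had ratios below 1 and 6 were lower past 1.2-fold, by the rule that 8.34% of all genes tested passed higher and 7.66% lower. Macrophage markers summed to 2805 and 2491 CPM, led by Lyz2 (44617 and 39139 counts) and Csf1r (9091 and 10176). Lyz2 alone gave 1640 and 1330 CPM. Over the 15 markers, 3 were past 1.2-fold higher and 2 lower, 7 ratios were below 1 and the median log2 ratio was 0.03. Osteoblast markers summed to 6449 and 8414 CPM, of which Col1a1 alone gave 6310 and 8210, followed by Ibsp. That sum is thus nearly the level of 1 gene, and does not show how many osteoblasts were present. All 7 measured had ratios below 1, 4 of them past 1.2-fold with an interval that excludes 0. The other 3 had intervals that span 0, among them Bglap (10 and 19 counts) and Bglap2 (13 and 20). Macrophages also make and export cholesterol, and the part of a shift in cell types in the small ratios above was not tested. In such bulk libraries fewer cells of a type and less RNA per cell cannot be told apart.

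Most of the 10 listed markers of fat cells, which express the lipogenic genes strongly, were at or near 0. Of 10 adipocyte markers, Lep and Cidec had 0 counts in both libraries, Adipoq had 2 in the Sparcl1 library and 8 in the control, Plin1 9 and 5, Cfd 4 and 7, and Retn 1 and 0. Lipe (364 and 360) and Pparg (185 and 222), the most abundant, are also expressed outside fat. Of the others, Fabp4 had 90 and 61 counts and was past 1.2-fold higher (log2 0.68, 0.19 to 1.17). Plin4 had 58 and 72 counts (log2 -0.19, with an interval that spans 0). Endothelial markers summed to 3.24 and 3.97 CPM and skeletal muscle markers to 1.77 and 1.53, with Myod1 and Ckm at 0 in both libraries.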

How the data were processed

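RNA-seq was analysed from 1 library of primary mouse chondrocytes given Sparcl1 and 1 given PBS. The authors deposited a table of raw, unscaled counts, 1 row per symbol and 1 column per library. The submitters' processing notes name STAR, HTSeq, FastQC and Trimmomatic, with build mm10; versions, annotation and strand setting are not given in the sources used here. Names turned into dates (26 entries) stayed in the totals. Libraries were scaled by TMM factors (1.012 for Sparcl1 and 0.988 for control) from edgeR 4.0.16 in R 4.3.3. Genes with at least 20 summed counts were tested against a rule of size (2-fold or 1.2-fold, with an exact 95% Clopper-Pearson interval excluding 0). The labels name no molecular identifiers, so PCR copies may count as separate reads, and intervals and the 3-count limit for a count of 0 cover counting error only. With 1 library per group no p-value can be given, and nothing says that either library pooled several cultures or animals. Positions, exonic lengths and GC content came from GENCODE M21 (GRCm38), with length and GC for 99.6% of tested genes. RefSeq promoter windows were on GRCm38.p6, and the last 25 bases lay in a GENCODE transcript of the same gene in 30 of the 33 windows of these genes. Ratios, intervals and calls were tested on simulated data that held counting error only, with no spread between cultures. Ratios and intervals were computed in Python 3.11.15 with scipy 1.17.1. Alternatives were library totals, DESeq2 1.42.0 size factors, upper-quartile factors, other count filters, a prior count of 2, other folds, means, and removal of length and GC trends. All members are named. From each neighbouring list the 2 highest, the 2 lowest (at least 200 summed counts) and the 2 most abundant genes are named, and from marker lists the 2 most abundant and those at or near 0; 1 gene under this rule is not reported here. Fabp4, Plin4 and Gm43738 fall outside this rule and were named after their values were seen. The members, lists and tests were chosen with earlier results of these data known, and the promoter motifs after the ratios were seen.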

Additional observations from a re-analysis of the deposited data

How the results depend on the processing

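No member passed 2-fold in either direction under any of the 8 alternatives to that count, including 1.5-fold. The members past 1.2-fold were the same 4 genes under the other scalings, count filters and the prior count. With length and GC trends removed, 0 were higher in place of 2, because Mvk and Pmvk came to 0.18 and 0.22, while Nsdhl and Elovl6 stayed. At 1.1-fold, 9 members were lower and 3 higher. The count of intervals excluding 0 with no minimum fold, a rule chosen after seeing the data, was 9 or 10 lower and 5 higher throughout, but not always of the same genes. Stard4 was lost with library totals and with trends removed, and with trends removed Pmvk was lost and Acaca (0.17) gained among those higher. There Srebf1 came to 0.07 and Scap to 0.09, against 0.13 and 0.15. The median of all members ran from -0.03 (as a mean) to 0.02 (with library totals, which shift all genes by a median of 0.03), so its sign is not fixed. The medians of the role groups each moved by less than 0.13, the median half-width of a counting interval. Regulators came to -0.0007 with trends removed, and the 16 cholesterol enzymes to 0.003 with library totals, against -0.03. Single ratios moved by at most 0.12, and signs changed for Ebp and Sqle with library totals and for Fasn, Mvd, Sc5d, Sqle and Srebf2 with trends removed, all of them genes whose interval spans 0. No paired analysis was possible because each group has 1 library, and no library could be left out. Depth limits the rarer members: the half-width of the interval was 0.33 at Idi1, against 0.04 at Scd2.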
